A study of Mus musculus with 16 samples.

Results

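Smad7 loss in macrophages that had not been given TGF-β1 was examined in 8 of the 16 RNA sequencing libraries of the series, the 4 labelled KO untreated and the 4 labelled fl/fl untreated. The libraries were chosen by their labels alone. The KO mice carried floxed Smad7 alleles (fl/fl) together with the CAGGCre-ER transgene, a Cre recombinase under the CAGG promoter that acts in the whole animal once tamoxifen is given. The control mice were fl/fl littermates without the Cre. Mice of both genotypes were C57BL/6 and received tamoxifen at 20 mg/kg on 5 days, and marrow was taken 2 weeks later, so tamoxifen was shared by all groups and the Cre was not, and the Cre and the loss of Smad7 cannot be told apart. Marrow cells from the tibia were grown to macrophages in CSF-1 and kept without serum for about 12 hours, and the untreated libraries come from cells collected without TGF-β1. The labels give the age as 1 month at the start of tamoxifen in one place and as 1 to 2 months in another. The other 8 libraries, used here for reference, are the same genotypes with TGF-β1 at 10 ng/ml for 4 hours. The labels do not say whether the replicates came from separate animals, so p-values measure the spread between these samples, which may be technical.

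Smad7 is an inhibitory Smad. Ligands of the TGF-β family bind paired type I and type II receptors, which phosphorylate the signal-carrying Smads (Smad2 and Smad3 for TGF-β, Smad1 and Smad5 for BMPs) that enter the nucleus with Smad4. Smad7 is induced by this signal, occupies the type I receptor and brings ubiquitin ligases to it, and so limits the signal in many cell types, macrophages among them. The comparison of untreated cells asks what the loss of Smad7 alters before any TGF-β1 is added.

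Total counts in the 8 untreated libraries ran from 16865591 to 23741079, and between 15834 and 17195 genes had at least 1 count. Expression is reported in CPM, a count divided by its library's size after TMM (trimmed mean of M-values) scaling. Macrophage markers were abundant in every untreated library. The summed CPM of the 10 markers tested was 21879 to 23898 in fl/fl, 18731 to 25988 in KO replicates 2, 3 and 4 and 18913 in KO replicate 1. Csf1r, the CSF-1 receptor, was at 3964 CPM in KO replicate 2 and at 4677 to 5722 CPM in the 7 others. Markers of B cells (2.39 to 3.90 CPM summed over 8 genes), of T and NK cells (7.21 to 10.6 CPM over 12 genes), of mast cells (0.12 to 0.719 CPM over 9 genes) and of erythroid cells (0.368 to 3.68 CPM over 9 genes) were at low levels, with Pax5, Cd3e and Mcpt8 at 0 in all 8.

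The library labelled KO untreated replicate 1 did not resemble the other untreated libraries. TGF-β1 changed 2204 of 12446 genes (17.7%) between the fl/fl groups, fitted on their own 8 libraries (edgeR's quasi-likelihood test, Benjamini-Hochberg adjusted p under 0.05), and a score was formed from the mean log2 CPM of those that rose minus that of those that fell. The score was 1.13 in KO untreated replicate 1, against -0.88 to -0.65 in the 7 other untreated libraries and 1.12 to 1.59 in the 8 TGF-β1 libraries. For 792 of these genes the KO libraries differed by at least 1 log2 unit between replicates 2 to 4 untreated and the KO TGF-β1 mean, and on that path, with untreated at 0 and TGF-β1 at 1, replicate 1 had a median position of 0.956 (quartiles 0.847 and 1.07). Of the 792 genes, 98.6% lay past the midpoint.

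**Figure D1:**
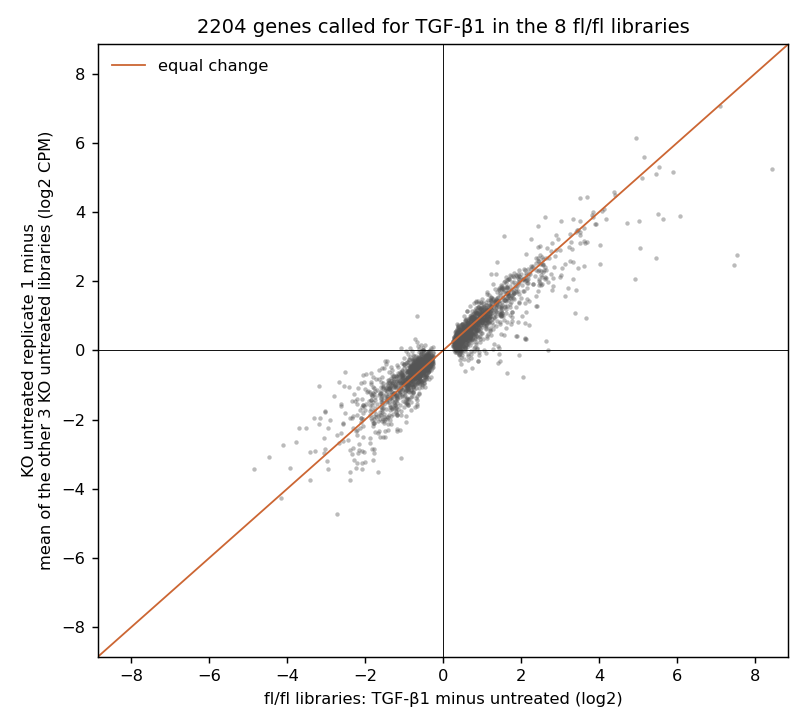
Each point is 1 of the 2204 genes called for TGF-β1 in the fl/fl libraries, with the log2 response in fl/fl on the x axis and the log2 CPM of KO untreated replicate 1 minus the mean of the other 3 KO untreated libraries on the y axis. Most points follow the line of equal change, in both directions.

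The 6 genes highest and the 6 lowest in replicate 1 relative to the other 3 KO untreated libraries were chosen for that ratio and are given as a description. Pmepa1, a TGF-β-induced gene whose product binds receptor Smads, was at 320 CPM in KO untreated replicate 1 and at 1.70, 2.66 and 2.73 CPM in KO replicates 2, 3 and 4, while the 4 fl/fl untreated libraries held 2.43 to 3.09 CPM and the 4 KO TGF-β1 libraries 292 to 343 CPM. Spsb1, Pald1, Fam46c, Tmeff1 and F2r were high in the same library (112, 474, 256, 21.5 and 13.6 CPM, in that order), and in the other 3 KO untreated libraries none of them was above 33.1 CPM. Mx1, Rsad2 and Cxcl10, which are induced by interferon, were low in it at 15.6, 30.6 and 9.98 CPM. The lowest of the other 3 KO untreated libraries held 118 CPM of Mx1, 301 CPM of Rsad2 and 95.2 CPM of Cxcl10. With TGF-β1 the KO libraries held 13.7 to 28.8 CPM of Mx1, 24.6 to 67.9 CPM of Rsad2 and 14.2 to 28.3 CPM of Cxcl10. Gbp5, Ednrb and Spic were also low in replicate 1, at 6.54, 16.6 and 1.48 CPM. Whether the label of this library is right was not tested, and results are given with and without it.

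A second library stood apart in another way. KO untreated replicate 2 held relatively more reads of short genes: the median log2 deviation from the fl/fl untreated libraries was 0.929 higher for genes under 1 kb than for genes over 5 kb, against 0.130, 0.308 and 0.155 in KO replicates 1, 3 and 4 and -0.20 to 0.293 in fl/fl. The 85 ribosomal protein genes, which are short, summed to 44865 CPM there. The other KO untreated libraries held 26040 to 28390 CPM of them and the fl/fl ones 22878 to 27957 CPM. Mitochondrially encoded genes took 2.71% of its counts and 1.73% to 2.25% of those of the other 7. Counts of gene lists are therefore also given without this library where that moves them.

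**Figure D2:**
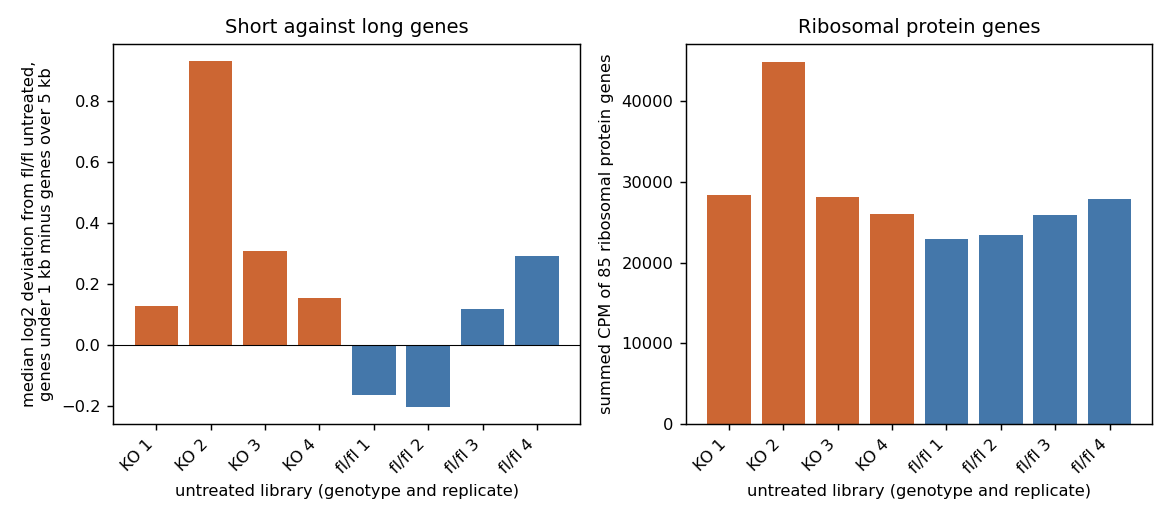
Bars give, for each of the 8 untreated libraries, the median log2 deviation of genes under 1 kb minus that of genes over 5 kb (left) and the summed CPM of 85 ribosomal protein genes (right), with KO in orange and fl/fl in blue. KO replicate 2 is highest in both panels, at 0.929 and 44865.

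Smad7, the targeted gene (ENSMUSG00000025880, mm10 chromosome 18, 75367529 to 75395935, plus strand), was at 3.89, 5.24, 6.03 and 4.80 CPM in fl/fl untreated replicates 1 to 4. It was at 1.28, 1.64 and 2.00 CPM in KO untreated replicates 2, 3 and 4, and at 5.87 CPM in replicate 1. Replicates 2 to 4 lay below every fl/fl library, and replicate 1 lay inside the fl/fl range. With all libraries the log2 fold change was -0.89 ± 0.37 (SE) and did not pass (edgeR adjusted p = 0.423). Without KO untreated replicate 1 it was -1.63 ± 0.27, and Smad7 fell (edgeR adjusted p = 0.0307). Per gene length, Smad7 was at 1.17 ± 0.215 FPKM (SD, n = 4) in fl/fl and 0.393 ± 0.0793 FPKM (SD, n = 3) in those KO libraries. The gene count does not separate the floxed part of the gene from the rest.

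In KO untreated replicate 1, Smad7 lay 0.604 of the way, on the log2 CPM scale, from the other KO untreated libraries to the KO TGF-β1 libraries. The latter held 13.9 ± 4.36 CPM (SD, n = 4). Smad7 in replicate 1 also lay below each fl/fl TGF-β1 library (37.3 to 58.3 CPM). Of the other genes measured within 1000000 bases of Smad7, the 7 tested (Acaa2, BC031181, Ctif, Dym, Gm20544, Rpl17 and Smad2) did not pass in either fit. Their log2 fold changes without replicate 1 ran from -1.04 for Gm20544, a gene with an SE of 1.29, to 0.45 for Rpl17.

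Esr1 encodes the estrogen receptor α, and the ER part of the Cre-ER fusion is derived from the same mouse sequence, so reads of the transgene and of the endogenous gene cannot be told apart here. Esr1 (mm10 chromosome 10, 4611593 to 5005614) was at 8.43, 5.65, 8.03 and 7.19 CPM in fl/fl and at 11.1, 13.1, 16.1 and 17.9 CPM in KO untreated replicates 1 to 4. All 4 KO libraries, replicate 1 included, lay above all 4 fl/fl libraries. The log2 fold change was 0.99 ± 0.20 with all libraries (edgeR adjusted p = 0.0884), and without replicate 1 it was 1.08 ± 0.20 and Esr1 rose (edgeR adjusted p = 0.0477).

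Few genes passed. With all libraries, 6 of 13080 genes were called at an adjusted p under 0.05, or 0.0459%, with 1 higher and 5 lower in KO. Without KO untreated replicate 1, 13 of 13335 genes were called, or 0.0975%, with 4 higher and 9 lower. All 6 of the first set were among the 13. At an unadjusted p under 0.05 the counts were 1421 with all libraries (833 higher and 588 lower) and 1572 without replicate 1 (780 higher, 5.85% of those tested, and 792 lower, 5.94%). The genes called in both fits were Cdk5rap1, Adam19, Hist1h2al, Gm3608, Gm11868 and Rps3a2, and those added without replicate 1 included Smad7, Esr1, Nav2, Vash2, Rab4a and Rpl29. When 1 more library was left out at a time, between 4 and 6 genes were called, and Gm3608, Gm11868, Nav2 and Adam19 were called in each such fit. Rps3a2 was lost only without KO replicate 3, and Smad7 was called only without fl/fl replicate 1. Cdk5rap1, Hist1h2al, Esr1, Vash2, Rab4a and Rpl29 were called in none of these 7 fits, each of which leaves out 1 of the 7 untreated libraries.

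**Figure D3:**
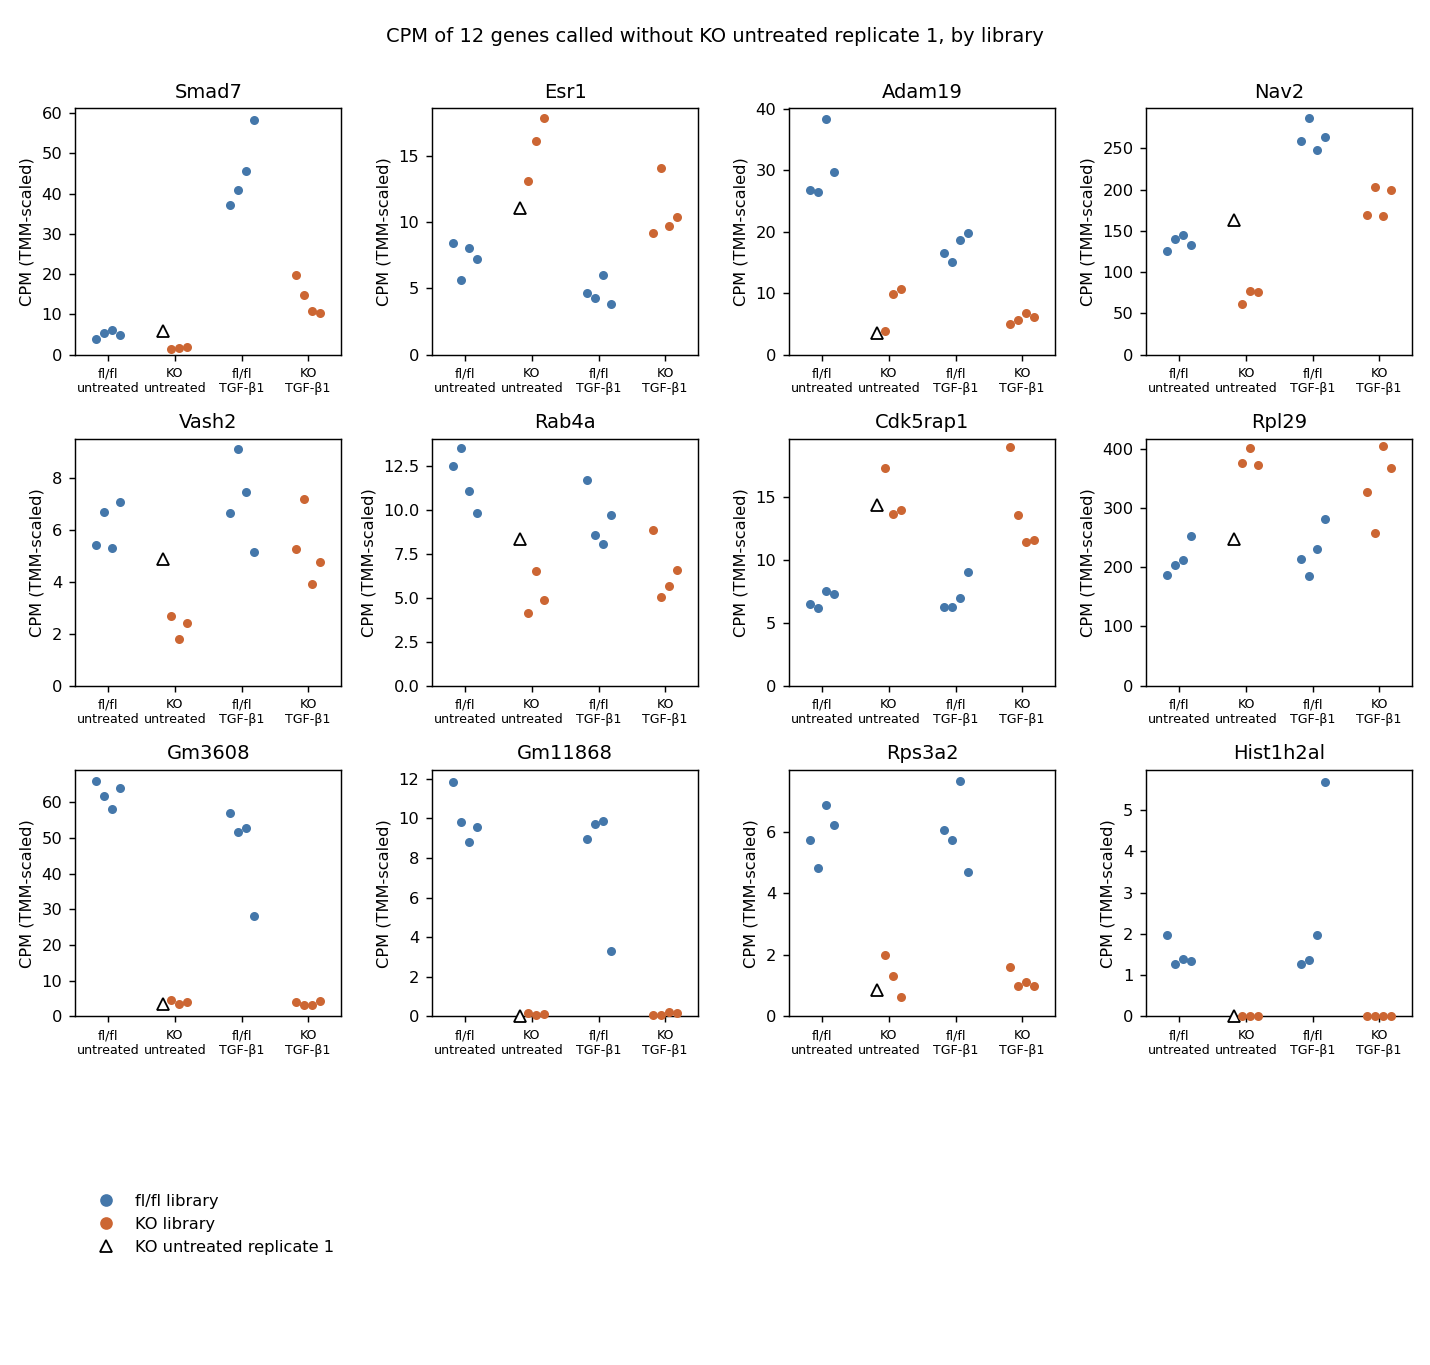
Each panel gives the CPM of 1 of 12 called genes in the 16 libraries on a linear axis from 0, with fl/fl libraries in blue, KO libraries in orange and KO untreated replicate 1 as an open triangle. The triangle sits with the other KO libraries for Adam19, Cdk5rap1, Gm3608, Gm11868, Rps3a2 and Hist1h2al, and within or above the fl/fl range for Smad7, Nav2 and Rpl29.

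Adam19 encodes a membrane-anchored metalloprotease that sheds the ectodomains of other surface proteins. It lies at mm10 chromosome 11, 46055992 to 46147343, plus strand. Its level was 26.8, 26.6, 38.4 and 29.8 CPM in the fl/fl and 3.49, 3.85, 9.87 and 10.7 CPM in the KO untreated libraries. The groups did not overlap, with or without replicate 1. Adam19 fell in both fits, with a log2 fold change of -2.12 ± 0.29 with all libraries (edgeR adjusted p = 0.00305) and -1.92 ± 0.26 without replicate 1 (edgeR adjusted p = 0.00275). In the 8 untreated libraries fitted alone the value was -2.12 and the call was lost (edgeR adjusted p = 0.279), as it was in the 7 without replicate 1 (-1.90, edgeR adjusted p = 0.103). Of the 2 antisense genes that overlap it, Gm16033 and Gm16034, neither had a count in the untreated libraries.

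Nav2 encodes neuron navigator 2, a protein of the microtubule cytoskeleton (mm10 chromosome 7, 48908716 to 49610090). It was at 126, 140, 145 and 132 CPM in fl/fl and at 60.8, 77.5 and 75.9 CPM in KO untreated replicates 2, 3 and 4, with no overlap. Replicate 1 held 163 CPM, above every fl/fl untreated library. Nav2 fell without replicate 1, by 0.95 ± 0.11 on the log2 scale (edgeR adjusted p = 7.13e-04). With all libraries the log2 fold change was -0.53 ± 0.21 and did not pass (edgeR adjusted p = 0.421). Nav2 is also higher with TGF-β1, where fl/fl held 248 to 287 CPM and KO held 168 to 203 CPM.

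Vash2 encodes vasohibin-2, an enzyme that removes the terminal tyrosine of α-tubulin (mm10 chromosome 1, 190947648 to 190979296, minus strand). It was at 5.44, 6.70, 5.30 and 7.07 CPM in fl/fl and at 4.87, 2.67, 1.82 and 2.42 CPM in KO untreated replicates 1 to 4. Rab4a encodes a small GTPase of recycling endosomes (mm10 chromosome 8, 123805985 to 123835287). It was at 12.5, 13.6, 11.1 and 9.84 CPM in fl/fl and at 8.36, 4.11, 6.55 and 4.88 CPM in the KO libraries. For both genes the 4 KO libraries lay below the 4 fl/fl libraries, and replicate 1 was the KO library nearest to fl/fl. Without replicate 1, Vash2 fell by 1.44 ± 0.26 (edgeR adjusted p = 0.0419) and Rab4a by 1.19 ± 0.22 (edgeR adjusted p = 0.0477) on the log2 scale, and with all libraries neither passed (edgeR adjusted p = 0.296 and 0.199).

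RefSeq promoter windows (250 bases before to 50 after a start, GRCm38.p6) were examined for 6 of 14 called genes. The 14 are the 13 and Tecpr1, which was called with TGF-β1. Smad7 was not among the 6, and its promoter was not examined. Of the 6, the genes called here with a window that holds the deposited gene's own start were Adam19 and Vash2. These windows are shown because both genes were lower in the KO libraries. Capitals mark CAGAC or its reverse complement GTCTG, the core that Smad3 and Smad4 bind. The Adam19 window is chr11:46055734-46056033, plus strand, and the Vash2 window is chr1:190979247-190979546, minus strand, each printed 5′ to 3′ along the gene.
Adam19: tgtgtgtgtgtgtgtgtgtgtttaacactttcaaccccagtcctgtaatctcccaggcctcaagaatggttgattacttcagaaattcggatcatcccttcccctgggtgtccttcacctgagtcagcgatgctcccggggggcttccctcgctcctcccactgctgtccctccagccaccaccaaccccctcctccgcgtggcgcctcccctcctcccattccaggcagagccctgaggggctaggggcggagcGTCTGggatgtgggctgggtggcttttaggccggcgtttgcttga
Vash2: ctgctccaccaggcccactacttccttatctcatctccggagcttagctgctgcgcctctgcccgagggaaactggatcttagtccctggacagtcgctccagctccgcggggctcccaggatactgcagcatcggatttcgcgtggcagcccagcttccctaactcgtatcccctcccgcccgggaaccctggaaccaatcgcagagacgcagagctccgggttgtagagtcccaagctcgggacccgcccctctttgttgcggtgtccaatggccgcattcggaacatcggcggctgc
The Adam19 window holds 1 match and the Vash2 window holds 0. Of 32851 such windows, 49.6% hold at least 1 match on either strand, so the match describes the sequence only and says nothing about binding.

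Cdk5rap1, which encodes a mitochondrial enzyme that modifies transfer RNAs, was the gene called as higher in both fits (mm10 chromosome 2, 154335380 to 154373010). It was at 6.46, 6.17, 7.51 and 7.32 CPM in fl/fl and at 14.4, 17.3, 13.6 and 14.0 CPM in KO untreated libraries. Every KO library exceeded every fl/fl library. Cdk5rap1 rose by 1.11 ± 0.17 log2 units with all libraries (edgeR adjusted p = 0.0166) and by 1.10 ± 0.19 without replicate 1 (edgeR adjusted p = 0.0347). In the fit of all libraries the call was lost without KO replicate 2 and without any 1 of the fl/fl untreated libraries.

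Rpl29, a protein of the large ribosomal subunit (mm10 chromosome 9, 106429454 to 106431568), was at 186, 203, 212 and 252 CPM in fl/fl and at 376, 401 and 373 CPM in KO replicates 2, 3 and 4. Replicate 1 held 247 CPM, inside the fl/fl range. Rpl29 rose without replicate 1 by 0.82 ± 0.15 (edgeR adjusted p = 0.0465), and with all libraries its log2 fold change was 0.71 ± 0.17 (edgeR adjusted p = 0.229). Of the 13 called genes Rpl29 alone was lost when gene length was corrected for, and 6 other genes have transcripts at least 95% identical to it over at least 50% of its length.

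Among the called genes, the largest fold changes without replicate 1 were in 4 genes with near-identical copies elsewhere, and their counts are uncertain where the authors' counting could split reads between copies. Gm3608, annotated as a pseudogene (mm10 chromosome 1, 105455971 to 105458829), was at 65.9, 61.7, 58.1 and 63.9 CPM in fl/fl and at 3.49, 4.73, 3.59 and 4.04 CPM in KO untreated replicates 1 to 4. It fell in both fits, with a log2 fold change of -3.98 ± 0.20 with all libraries (edgeR adjusted p = 1.55e-09) and -3.94 ± 0.22 without replicate 1 (edgeR adjusted p = 1.39e-08). Its transcript is 99.5% identical to Capza1, an actin-capping subunit, over 100% of its length. Capza1 itself was at 192 to 218 CPM in fl/fl and 237 to 264 CPM in the 4 KO libraries, a log2 fold change of 0.32 ± 0.15 without replicate 1 (edgeR adjusted p = 0.415).

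Gm11868, a second pseudogene (mm10 chromosome 4, 18844202 to 18845679), was at 8.81 to 11.8 CPM in fl/fl and at 0, 0.15, 0.089 and 0.11 CPM in KO replicates 1 to 4. It fell in both fits, with a log2 fold change of -6.77 ± 0.48 with all libraries (edgeR adjusted p = 3.17e-07) and -6.39 ± 0.48 without replicate 1 (edgeR adjusted p = 8.53e-07). It is 98.0% identical to Cyb5r4, a cytochrome b5 reductase, whose own log2 fold change was 0.16 ± 0.12 (edgeR adjusted p = 0.601). Rps3a2, also a pseudogene (mm10 chromosome 14, 88123017 to 88123808), was at 5.74, 4.83, 6.86 and 6.23 CPM in fl/fl and 0.86, 2.00, 1.33 and 0.63 CPM in KO libraries. Its log2 fold change was -2.29 ± 0.30 with all libraries (edgeR adjusted p = 0.00235) and -2.18 ± 0.32 without replicate 1 (edgeR adjusted p = 0.0072), and Rps3a2 fell in both fits. In the untreated libraries fitted alone the call was lost (edgeR adjusted p = 0.0967 with all 8 and 0.0709 without replicate 1). It is 99.5% identical to the ribosomal protein gene Rps3a1, whose log2 fold change was 0.52 ± 0.15 (edgeR adjusted p = 0.305).

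Hist1h2al (mm10 chromosome 13, 51202688 to 51203065), a histone H2A sequence listed as protein coding in the deposited table and as a processed pseudogene in GENCODE M21, had 119 counts over the 4 fl/fl untreated libraries (1.97, 1.28, 1.39 and 1.35 CPM) and 0 in the 4 KO untreated libraries. At a floor of 3 counts over the group it was at least 40.3-fold lower in KO, a bound for counting error only. It passed in both fits (edgeR adjusted p = 0.0187 with all libraries and 0.033 without replicate 1), and 7 other genes have transcripts at least 95% identical to it. The call in the fit of all libraries was lost without KO replicate 2 and without any 1 of the fl/fl untreated libraries. For these 4 genes KO untreated replicate 1 lay with the other KO libraries, as it did for Adam19 and Cdk5rap1.

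The same contrast was made between the TGF-β1 libraries. Both contrasts came from 1 fit and share its estimate of spread, so they are not separate evidence. With TGF-β1, 5 of 13080 genes (0.0382%) were called in the fit of all libraries and 8 of 13335 (0.06%) in the fit without KO untreated replicate 1. In the fit without it, 7 genes were called in both treatments, or 7 of the 13 untreated and 7 of the 8 with TGF-β1: Smad7, Esr1, Adam19, Gm3608, Gm11868, Rps3a2 and Hist1h2al. All 7 had the same direction in both. The gene called with TGF-β1 alone was Tecpr1, an autophagy gene, at -0.53 ± 0.09 with TGF-β1 and -0.36 ± 0.09 untreated (edgeR adjusted p = 0.0143 and 0.264). In the fit of all libraries, 4 genes were called in both treatments: Gm3608, Gm11868, Rps3a2 and Hist1h2al. With TGF-β1, Smad7 and Adam19 did not pass in that fit (edgeR adjusted p = 0.122 and 0.0697).

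Side by side, the untreated and TGF-β1 log2 fold changes without replicate 1 were -1.92 and -1.56 for Adam19, 1.08 and 1.22 for Esr1, and 1.10 and 0.98 for Cdk5rap1, which did not pass with TGF-β1 (edgeR adjusted p = 0.061). Smaller values with TGF-β1 were seen for Vash2 (-1.44 and -0.41), Nav2 (-0.95 and -0.50) and Rab4a (-1.19 and -0.53). A test of the difference between the treatments called 0 of 13335 genes (0%, with 267 at an unadjusted p under 0.05, edgeR), and its unadjusted p was 0.00687 for Vash2, 0.00881 for Nav2 and 0.0372 for Rab4a. So a difference between treatments was not shown for these genes. One of the fl/fl TGF-β1 libraries, replicate 4, was itself apart, with 0.575% mitochondrial counts and 28.0 CPM of Gm3608 against 51.6 to 56.9 CPM in the other 3.

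**Figure D4:**
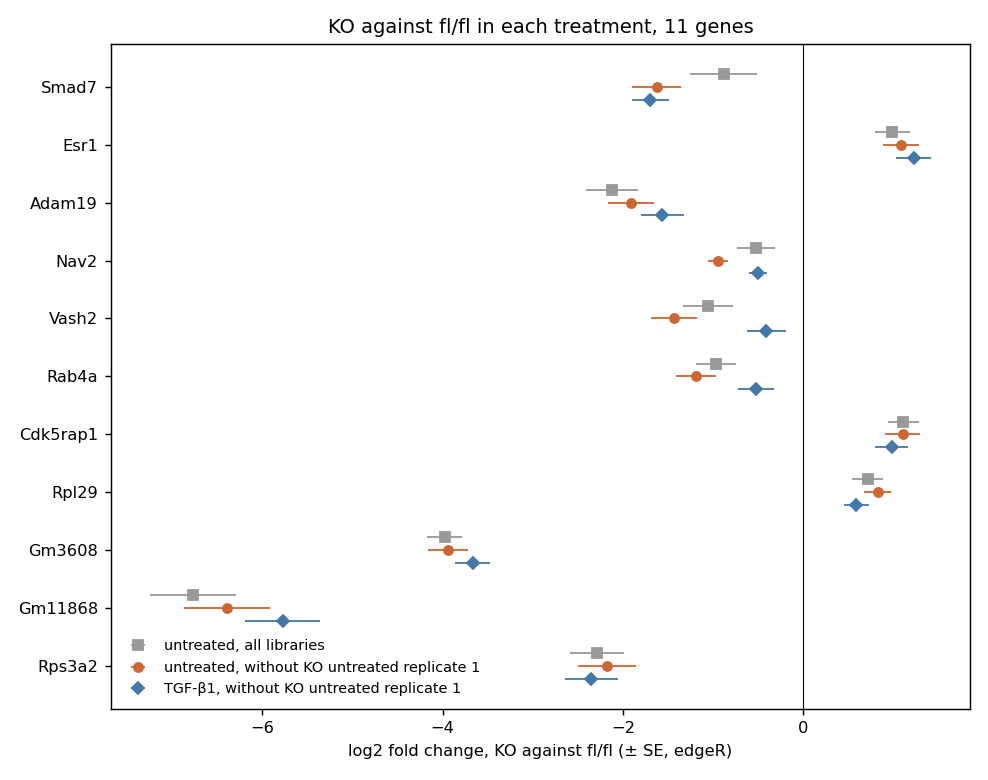
Points give the log2 fold change of KO against fl/fl ± SE (edgeR) for 11 called genes, untreated with all libraries (grey squares), untreated without KO untreated replicate 1 (orange circles) and with TGF-β1 in the latter fit (blue diamonds). Every gene keeps its side of 0 in the 3 estimates, and Smad7 and Nav2 move away from 0 without replicate 1.

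Several characterised genes came next in order of p and are given as values only. In the fit of all libraries, Atp6v0a1, a subunit of the vacuolar proton pump, was at 363 to 370 CPM in fl/fl and at 237, 259, 273 and 276 CPM in KO libraries (log2 fold change -0.49 ± 0.09, edgeR adjusted p = 0.0834). Cblb, a ubiquitin ligase that dampens immune receptors, was at 55.8 to 64.8 CPM in fl/fl and 37.2 to 48.6 CPM in KO (-0.51 ± 0.10, edgeR adjusted p = 0.0834). Abca9, a transporter, was at 25.7 to 30.8 CPM in fl/fl and at most 18.9 CPM in KO (-0.84 ± 0.16, edgeR adjusted p = 0.0884). In these 3 genes the groups did not overlap. The share of all genes without overlap was not counted, so here and in the gene lists below a lack of overlap is a description only. Ctsh, the protease cathepsin H, was at 78.6 to 83.5 CPM in fl/fl and 94.1 to 187 CPM in KO (0.79 ± 0.17, edgeR adjusted p = 0.159). Vdr, the vitamin D receptor, was at 0.699 to 1.52 CPM in fl/fl and at 8.93, 3.39, 1.77 and 2.21 CPM in KO replicates 1 to 4 (1.85 ± 0.41, edgeR adjusted p = 0.18). Without replicate 1 the log2 fold changes were -0.47 for Atp6v0a1, -0.47 for Cblb, -0.72 for Abca9, 0.60 for Ctsh and 1.09 for Vdr. Their edgeR adjusted p was 0.0852, 0.0959, 0.0959, 0.264 and 0.254, in that order. In fl/fl, TGF-β1 changed these genes by -0.40, -0.54, -0.76, 0.90 and 2.82 log2 units, in the same order and directions. Idnk, a gluconate kinase, had a log2 fold change of 0.76 ± 0.17 without replicate 1 (edgeR adjusted p = 0.123). With all libraries that of Idnk was 0.63 (edgeR adjusted p = 0.403).

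Among TGF-β family receptors, 11 of 14 were tested, 0 were called and 2 had an unadjusted p under 0.05, both lower (1 without KO replicate 2). Over all genes tested without replicate 1, 5.85% were higher and 5.94% lower at that threshold. Without KO replicate 2 as well, these shares were 1.91% and 3.17%. The same shares apply to the lists that follow. The receptors had a median log2 fold change of -0.20 without replicate 1, and -0.09 with all libraries, against -0.0043 and 0.025 over all genes tested. Tgfbr2, the type II receptor that binds TGF-β, was at 260, 259, 270 and 279 CPM in fl/fl and at 178, 199, 196 and 198 CPM in KO untreated replicates 1 to 4. All 4 KO libraries lay below all fl/fl libraries. The log2 fold change was -0.45 ± 0.10 without replicate 1 and -0.47 ± 0.09 with all libraries, and did not pass (edgeR adjusted p = 0.0959 and 0.0898). In fl/fl, TGF-β1 also lowered Tgfbr2 (log2 fold change -0.48). The part of such a change in the value of replicate 1 was not tested. Eng, the co-receptor endoglin, had a log2 fold change of -0.43 in both fits (edgeR adjusted p = 0.39 without replicate 1 and 0.414 with it). Tgfbr1, the type I receptor that Smad7 targets, was at 228 to 289 CPM in fl/fl, at 106, 252 and 233 CPM in KO replicates 2, 3 and 4 and at 776 CPM in replicate 1, and did not pass in either fit (edgeR adjusted p = 0.533 without replicate 1 and 0.763 with all libraries).

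Of the ligands and latency genes, 13 of 28 were tested and 0 were called, with 1 higher and 2 lower at an unadjusted p under 0.05 (0 and 0 without KO replicate 2). Tgfb1, the ligand with the highest level per gene length, was at 204 ± 8.66 FPKM (SD, n = 4) in fl/fl and 195 ± 13.3 FPKM (SD, n = 3) in KO replicates 2 to 4. Ltbp3, which holds latent TGF-β in the matrix, had a log2 fold change of -0.30 ± 0.13 without replicate 1 (edgeR adjusted p = 0.413) and -0.02 with all libraries. Thbs1, thrombospondin 1, an activator of latent TGF-β, was at 84.1 to 155 CPM in fl/fl and at 259, 1643, 112 and 96.3 CPM in KO replicates 1 to 4. Its log2 fold change of 2.27 ± 0.73 without replicate 1 (edgeR adjusted p = 0.345), 2.08 with all libraries, was -0.27 without replicate 2 as well.

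Of the Smads and their nuclear partners, 17 of 18 were tested and 0 were called, with 1 at an unadjusted p under 0.05 in each direction (0 without KO replicate 2). Levels in fl/fl per gene length were 15.4 ± 0.818 FPKM for Smad2, 5.10 ± 0.307 FPKM for Smad3 and 26.9 ± 1.63 FPKM for Smad4 (SD, n = 4). KO replicates 2 to 4 held 17.1 ± 1.46, 4.95 ± 0.295 and 23.4 ± 2.03 FPKM (SD, n = 3). None of the 3 passed (edgeR adjusted p = 0.768, 0.784 and 0.434). Ski, a repressor of Smad2 and Smad3, was at 240 to 271 CPM in fl/fl and at 160, 224 and 221 CPM in KO replicates 2, 3 and 4 (log2 fold change -0.36 ± 0.14, edgeR adjusted p = 0.378), while replicate 1 held 787 CPM and the value with all libraries was 0.45 ± 0.36 (edgeR adjusted p = 0.661).

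Negative feedback genes and Smad7 partners held 1 called gene, Smad7 itself, among 27 tested, with 2 higher and 3 lower at an unadjusted p under 0.05 (1 and 1 without KO replicate 2). Smad6, the other inhibitory Smad, which acts mainly on BMP receptors, was at 2.81, 1.57, 3.52 and 1.98 CPM in fl/fl and at 5.96, 4.03 and 3.05 CPM in KO replicates 2, 3 and 4. The groups overlapped, and the log2 fold change of 0.78 ± 0.24 did not pass (edgeR adjusted p = 0.309). KO replicate 1 held 54.6 CPM, and the KO TGF-β1 mean was 70.3 CPM. With all libraries the log2 fold change of Smad6 was 2.77 ± 0.77 (edgeR adjusted p = 0.344).

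Genes induced through Smad2 and Smad3 showed how far 1 library sets the result. Of 24 on the list, 19 were tested, and their median log2 fold change was 0.50 with all libraries and 0.01 without replicate 1. In the latter fit 2 were higher and 3 lower at an unadjusted p under 0.05 (1 and 3 without KO replicate 2), and Smad7 was the called one. Pmepa1 went from a log2 fold change of 4.88 to -0.24, and Spsb1 from 3.16 to -0.59, and neither passed in either fit. The 7 BMP target genes tested likewise moved from a median of 0.49 to -0.01. Without replicate 1, 2 of them were higher and 0 lower at an unadjusted p under 0.05 (0 and 0 without KO replicate 2). Id3, a repressor of helix-loop-helix factors, was at 1.75 to 2.23 CPM in fl/fl and at 2.73 to 6.47 CPM in KO replicates 2 to 4, which do not overlap, and its log2 fold change of 1.03 ± 0.38 did not pass (edgeR adjusted p = 0.372), nor did the value of 3.21 ± 0.87 with all libraries (edgeR adjusted p = 0.334). Olfml3, a gene that TGF-β1 raised, was at 3.08, 5.93 and 5.46 CPM in the same KO libraries, 2.02 to 3.39 CPM in fl/fl and 59.7 CPM in KO replicate 1.

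In the other gene lists the called members were Adam19, among 23 matrix and protease genes, and Esr1, among 3 estrogen receptor and tamoxifen-responsive genes, so members are counted at an unadjusted p under 0.05, where the share of all genes is 5.85% higher and 5.94% lower. Leaving out KO replicate 2 as well lowers these shares to 1.91% higher and 3.17% lower. A correction of each library's trend with gene length, chosen after seeing the data, gives 3.77% and 3.94%. None of these counts is adjusted for the number of genes tested. Unless said otherwise, values in the gene lists that follow are without KO replicate 1, and none of the genes named there passed with all libraries either.

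Cholesterol synthesis genes had lower values in the KO libraries. Of 20 tested, 0 were higher and 11 lower, the median log2 fold change was -0.35 (-0.41 with all libraries), and 19 had a negative value. Dhcr7, which makes cholesterol in the last step of one branch, was at 69.3, 62.5, 55.7 and 59.0 CPM in fl/fl and at 35.8, 41.6, 48.6 and 45.6 CPM in KO replicates 1 to 4, without overlap. Its log2 fold change was -0.47 ± 0.12 (edgeR adjusted p = 0.264) and -0.52 ± 0.12 with all libraries. Fdft1, Lss and Srebf2, which encode 2 enzymes of the pathway and its transcription factor, were at -0.35, -0.47 and -0.36. Without KO replicate 2 the count was 4 lower with a median of -0.27, and with the length correction it was 12 lower with a median of -0.34. With TGF-β1 the median over the same list was -0.07. LXR targets, which act in cholesterol export and lipid synthesis, had 5 lower and 0 higher of 17 (2 lower without KO replicate 2), with Scd2, a fatty acid desaturase, at -0.64 ± 0.18 (edgeR adjusted p = 0.287) and -0.46 with all libraries.

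Interferon-stimulated genes leaned higher in KO replicates 2 to 4, with wide spread among fl/fl libraries. Their summed level was 3199, 3395 and 3709 CPM in KO replicates 2, 3 and 4 and 3727, 3130, 2113 and 2388 CPM in fl/fl replicates 1 to 4, so the groups overlapped. KO replicate 1 held 1236 CPM. Of 28 tested, 8 were higher and 0 lower, with a median log2 fold change of 0.31 and 26 positive values. Isg15, a ubiquitin-like modifier, was at 26.8, 27.4, 18.5 and 29.7 CPM in fl/fl and at 39.8, 38.8 and 34.7 CPM in KO replicates 2, 3 and 4, and at 14.4 CPM in replicate 1. The 3 libraries lay above fl/fl and replicate 1 lay below it. Its log2 fold change was 0.54 ± 0.16 (edgeR adjusted p = 0.305) and 0.32 with all libraries, that of Oas1g, an antiviral oligoadenylate synthetase, 0.52 ± 0.15 (edgeR adjusted p = 0.305), and that of Oasl1 0.86 ± 0.30 (edgeR adjusted p = 0.361). Without KO replicate 2, 5 were higher and the median was 0.37, and with the length correction 5 were higher and it was 0.30. With all libraries the median was 0.07, and with TGF-β1 it was 0.12.

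MHC class I presentation genes had 7 higher and 0 lower of 14, with a median of 0.26 (0.20 with all libraries). Tap2, a peptide transporter, was at 29.6, 34.7, 31.9 and 31.0 CPM in fl/fl and at 43.4, 41.4 and 39.0 CPM in KO replicates 2, 3 and 4, without overlap, and at 30.7 CPM in replicate 1 (log2 fold change 0.35 ± 0.11, edgeR adjusted p = 0.305, and 0.28 with all libraries). Psmb10, an immunoproteasome subunit, was at 0.41 ± 0.13, and H2-K1, a class I heavy chain, at 0.27 ± 0.12. Without KO replicate 2, 5 were higher with a median of 0.25, and with the length correction 3 were higher with a median of 0.21. Of 22 innate sensors 5 were higher and 0 lower (2 higher without KO replicate 2), led by Clec4d, a C-type lectin, at 271 to 322 CPM in fl/fl and 353 to 512 CPM in KO replicates 2 to 4 (0.47 ± 0.12, edgeR adjusted p = 0.264, and 0.33 with all libraries). Clec4n, a related lectin, was at 0.33 ± 0.13 (edgeR adjusted p = 0.383) and 0.08 with all libraries.

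Cytosolic ribosomal protein genes depended on 1 library. Of 30 tested, 13 were higher and 0 lower, with a median log2 fold change of 0.34 (0.31 with all libraries). Rps9 was at 404, 446, 489 and 540 CPM in fl/fl and at 1021, 576 and 539 CPM in KO replicates 2, 3 and 4, and Rps24 at 270 to 391 and at 881, 388 and 379 CPM. Replicate 2 was the high library in both. Without KO replicate 2 the count was 0 of 30 in both directions and the median was 0.08, and with the length correction 6 were higher with a median of 0.14. Nuclear genes of oxidative phosphorylation went from 4 of 21 higher to 0 without replicate 2, and Nrf2 antioxidant genes from 4 of 16 to 0, while with the length correction they stood at 1 and 4. Ndufa2, a complex I subunit, was at 86.8 CPM in replicate 2 and 35.1 to 36.2 CPM in replicates 3 and 4.

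In the fit without replicate 1, which keeps KO replicate 2, values followed a trend with gene length. KO replicate 2 had the largest trend, at 0.929 against 0.308 and 0.155 in KO replicates 3 and 4. Genes were not counted by length without it. Of the 1192 genes under 1 kb, 203 were higher and 14 lower at an unadjusted p under 0.05, with a median log2 fold change of 0.32. Of the 2385 genes over 5 kb, 23 were higher and 361 lower, with a median of -0.16. The part of the length trend in each list above was not tested beyond the counts given.

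Several lists of macrophage functions had few members past the unadjusted threshold. Of 24 phagocytosis genes, 0 were higher and 4 lower (3 without KO replicate 2) with a median of -0.19, and Elmo1, which couples engulfment receptors to the GTPase Rac, was at 128 to 153 CPM in fl/fl and 95.4 to 108 CPM in KO replicates 2 to 4 (log2 fold change -0.47 ± 0.11, edgeR adjusted p = 0.224, and -0.11 with all libraries). Of 12 alternative activation genes, 1 was higher and 3 lower (0 and 1 without KO replicate 2), and Mrc1, the mannose receptor, was at 553 to 726 CPM in fl/fl and 407, 494, 487 and 493 CPM in KO replicates 1 to 4 (-0.41 ± 0.13, edgeR adjusted p = 0.339, and -0.45 with all libraries). Mrc1 is also on the macrophage marker list. Of the 23 matrix and protease genes, 5 were higher and 4 lower (2 and 4 without KO replicate 2), and Plau, the urokinase gene, was at 8.25, 11.4, 15.7 and 39.2 CPM in fl/fl and 6.27, 7.13 and 7.93 CPM in KO replicates 2, 3 and 4 (-1.42 ± 0.38, edgeR adjusted p = 0.265, and -0.50 with all libraries). Of 17 p53 targets, 4 were higher and 1 lower (4 and 0 without KO replicate 2), with Fas, a death receptor, at 0.55 ± 0.16 (edgeR adjusted p = 0.305) and 0.28 with all libraries. Inflammatory cytokines had 2 of 11 higher, chemokines 1 of 18 and NF-κB genes 1 of 18, with 0 lower in each. Without KO replicate 2, cytokines had 1 higher and 1 lower of 12, chemokines 1 and 1, and NF-κB genes 2 and 0.

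Summed markers of some other cell types are given as a description, and not all of them separated the groups. Summed monocyte markers were at 193 to 236 CPM in KO replicates 2 to 4 and 243 to 391 CPM in fl/fl, and summed progenitor markers at 17.2 to 21.2 and 11.7 to 14.1 CPM, and neither overlapped. Their members went both ways without replicate 1. Of 7 monocyte markers tested, 3 had a positive and 4 a negative log2 fold change, and of 6 progenitor markers 3 and 3. A sum can be carried by a few members. Endothelial markers were at 38.0 to 75.4 CPM in those KO libraries and 75.2 to 90.3 CPM in fl/fl. Neutrophil markers were at 105 to 167 CPM in those KO libraries and 127 to 155 CPM in fl/fl. In these bulk libraries fewer cells of a type and less RNA per cell cannot be told apart, and the part of these cells in the results was not tested.

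**Figure D5:**
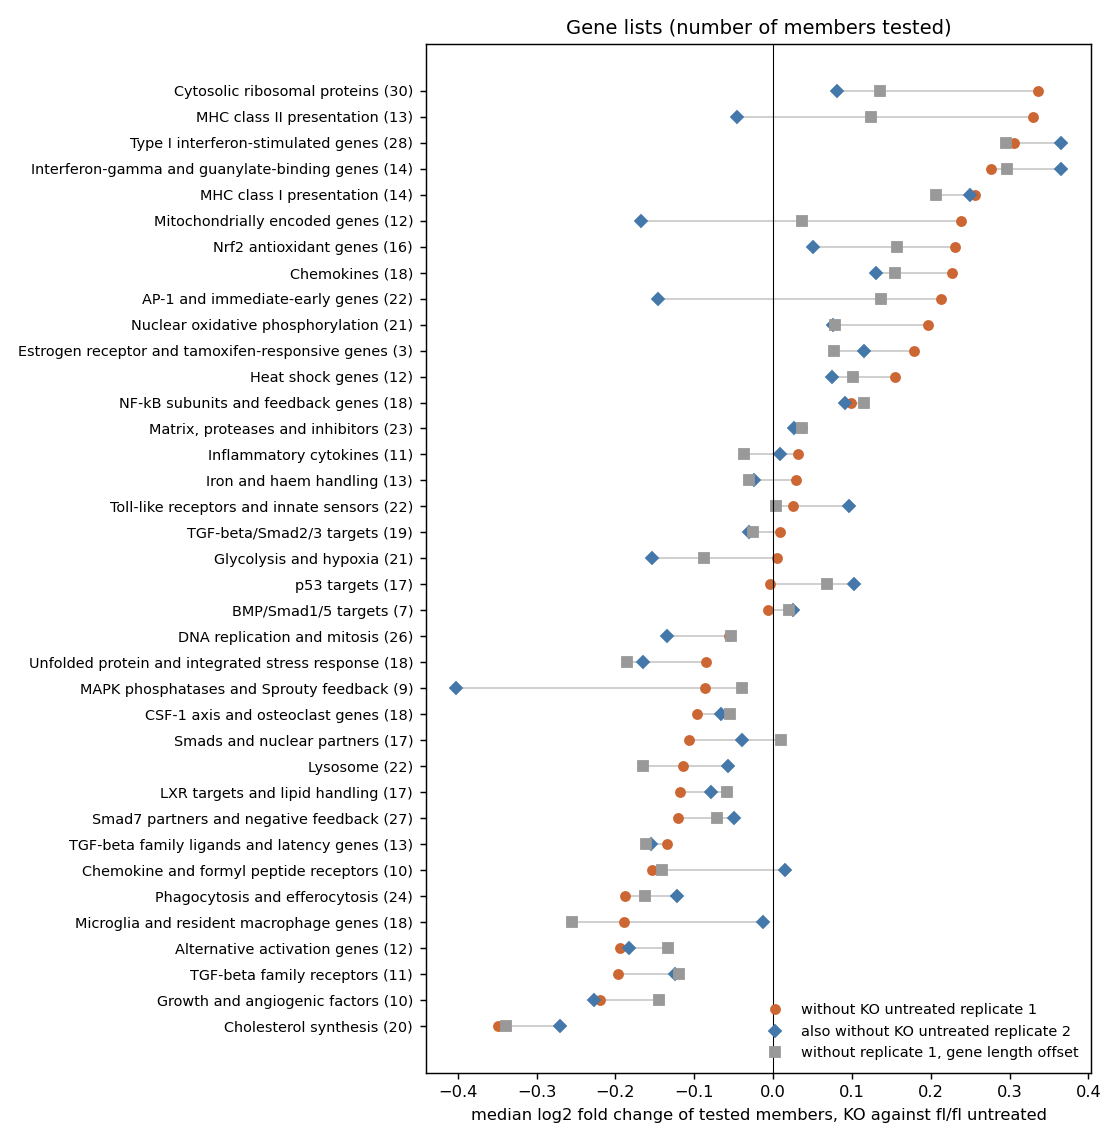
Each row is a gene list, with the number of members tested in brackets, and the x axis is the median log2 fold change of KO against fl/fl untreated without KO replicate 1 (orange circles), also without KO replicate 2 (blue diamonds) and with a gene length offset (grey squares). Cholesterol synthesis is lowest in the first fit at -0.35, and the ribosomal protein median falls from 0.34 to 0.08 without replicate 2.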

How the data were processed

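Poly(A) RNA from macrophages was sequenced as 150-base paired reads, per the labels' protocols. The protocol text mentions fewer cDNA libraries than the 16 samples listed. TopHat2 2.0.9, HTSeq 0.6.1 and Cufflinks 2.1.1 are named in the submitters' processing notes, as are the builds mm10 and GRCm38.p6, and strand and multiple-mapping settings are not given in the sources used here. The deposited table holds raw counts and FPKM per gene, the latter normalized by gene length and library total by the authors. Counts were tested with edgeR 4.0.16 (R 4.3.3; TMM scaling, filterByExpr, robust quasi-likelihood fit of 4 group means) over 16 libraries, and again without KO untreated replicate 1, with Benjamini-Hochberg adjustment and a threshold of 0.05. CPM and log2 fold changes were computed from the deposited counts. The test was checked on simulated data: without replicate 1, 76% of 50 genes changed 2-fold were recovered (12956 genes). That simulation gave 165 calls, 13 of them false, and held no library set apart and no trend with gene length. With fewer calls, as in the real data, the adjusted threshold is stricter, so the share may overstate recovery here. Copies were found with blastn 2.17.0 in GENCODE M21 transcripts. Alternatives were DESeq2 1.42.0, limma 3.58.1 on log2(FPKM + 0.1) and log2(FPKM + 1) computed from the deposited FPKM, other scalings and filters, a minimum fold, untreated libraries alone, a replicate block, a length offset and leaving out single libraries.

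The members and gene lists were chosen with earlier results of these data known. Named were Smad7 and Esr1, the called characterised genes (or the 5 of lowest p as values), up to 3 called members of each list or else its member of lowest p, the 6 highest and 6 lowest genes of KO untreated replicate 1, and genes called in both treatments. The called characterised genes and those given as values by p needed an average log2 CPM of at least 0. In the fit without replicate 1 they also needed KO and fl/fl libraries that did not overlap in CPM. For genes named from that fit, the lack of overlap is therefore no separate result. For other genes it is a description only, since the share of all genes without overlap was not counted. Genes that lie outside this rule, such as the core receptors, Smads and further list members, were added after their values were seen. A called gene and a marker are not reported here.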

Additional observations from a re-analysis of the deposited data

Results flagged for a closer look

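Of 158 measures tested in the 4 KO or the 4 fl/fl untreated libraries, 34 had 1 library far from the other 3 by Dixon's test at the 95% level, which chance passes in about 1 of 20 groups. KO untreated replicate 1 was the library apart in 20 of them and KO untreated replicate 2 in 11. Pmepa1, F2r, Spsb1, Tmeff1, Fam46c, Pald1 and Rsad2 were chosen because replicate 1 was extreme in them, and other measures were added after their values were seen, so these counts cannot be read against the chance rate.

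KO untreated replicate 1 was high in Nav2 (163 CPM, against 60.8 to 77.5 CPM in the other 3 KO libraries), Smad7 (5.87 CPM), Pmepa1 (320 CPM), F2r (13.6 CPM), Spsb1 (112 CPM), Tmeff1 (21.5 CPM), Fam46c (256 CPM), Pald1 (474 CPM), Smad6 (54.6 CPM), Ski (787 CPM), Id3 (62.5 CPM), Olfml3 (59.7 CPM), Elmo1 (212 CPM) and Plau (31.5 CPM). It was low in Tecpr1 (106 CPM, against 214 to 227 CPM), Rsad2 (30.6 CPM), Tgfbr2 (178 CPM), Clec4n (33.7 CPM) and Mrc1 (407 CPM). Its TGF-β1 score was 1.13.

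KO untreated replicate 2 was high in Thbs1 (1643 CPM, against 96.3 to 259 CPM in the other 3 KO libraries), Rps9 (1021 CPM), Rps24 (881 CPM), Rps3a1 (728 CPM), Ndufa2 (86.8 CPM), Birc5, a mitotic gene (93.8 CPM), and Dusp6, a phosphatase that dampens ERK (36.1 CPM). Its ribosomal protein sum was 44865 CPM and its mitochondrial share 2.71%. It was low in Smad4 (68.0 CPM, against 81.7 to 82.7 CPM) and Csf1r (3964 CPM).

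Among fl/fl untreated libraries, replicate 1 was high in Hist1h2al (1.97 CPM) and Capza1 (218 CPM), and replicate 3 was low in H2-K1 (812 CPM).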

How the results depend on the processing

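With all libraries, 6 genes were called. Leaving out 1 library gave 4 to 13, with 13 without KO untreated replicate 1 and 10 without KO TGF-β1 replicate 1 or without fl/fl TGF-β1 replicate 4, DESeq2 gave 61 and no filter 10. The Smad7 log2 fold change ran from -1.63 to -0.66 when 1 library was left out. Without KO untreated replicate 1, 13 genes were called, and 4 to 6 when a further library was left out. DESeq2 gave 58, the 7 untreated libraries alone 7, a minimum fold change of 1.5 gave 3 and limma on log2(FPKM + 0.1) 7. The Smad7 value ran from -1.77 to -1.48 with a further library left out. It kept its direction and missed the threshold with library totals only (-1.57), in the 7 untreated libraries alone (-1.61), with the minimum fold change (-1.63) and with limma (-1.36). The TGF-β1 comparison gave 4 to 8 calls when 1 library was left out. Without KO untreated replicates 1 and 2, the sign reversed for Birc5 (-0.017), Dusp6 (-0.096) and Thbs1 (-0.27), none of which had passed and which reached at most 1.09, 1.03 and 2.81 with another library left out, and the causes were not tested. Replicate numbers showed no pairing of KO with fl/fl untreated libraries: deviations of same-numbered ones correlated at -0.17 to -0.020. Whether untreated and TGF-β1 libraries of the same number are paired was not tested. The main fits treat all libraries as independent. With the replicate number as a block, 4 genes were called with all libraries (Smad7 -1.01) and 8 without KO untreated replicate 1 (Smad7 -1.62, which missed the threshold). Adam19 and Rps3a2 lost their calls in the 8 untreated libraries alone, which called 4 genes, and in the 7 without replicate 1. In simulated data without KO untreated replicate 1, 34% of 50 genes changed 1.5-fold and 76% of 50 changed 2-fold were recovered. Those data gave 165 calls, 13 of them false, so these shares may overstate recovery in the real data.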
